A study of Sus scrofa and Bos taurus with 31 samples.

Results

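The genes described here are 9 pig genes known from growth and carcass traits: IGF2, MSTN, RYR1, PRKAG3, CAST, MC4R, VRTN, PLAG1 and LCORL. They were given by name, by a rule that uses no measured value but with earlier results of these data known, and are 9 of the 20674 protein-coding genes annotated on the pig genome build Sscrofa11.1. Each gene was described by the open chromatin inside its body and 10 kb on either side, called its window. ATAC-seq uses a transposase to insert adapters into chromatin that nucleosomes leave exposed, and it was carried out on nuclei of 8 pig tissues: skeletal muscle, adipose, liver, lung, spleen, cerebellum, cerebral cortex and hypothalamus. Each tissue was taken from the same 2 animals, P348 and P350, which gave 16 libraries with 1 list of peaks each. Per the study's methods the pigs were sexually mature castrated male Yorkshire littermates, without any treatment, so the animals share breed, sex and parents and no intact or female animal was compared. The tissue pieces hold a mixture of cell types, and in such bulk samples fewer open cells of a type and less opening per cell cannot be told apart.

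These genes come from several routes to body size and meat quality. IGF2 is a secreted growth factor of fetal and muscle growth, and MSTN encodes myostatin, a secreted brake on muscle mass whose loss gives heavily muscled animals. RYR1 is the calcium release channel of the muscle sarcoplasmic reticulum, mutated in pigs prone to malignant hyperthermia, PRKAG3 is a regulatory subunit of AMP kinase that governs muscle glycogen, and CAST encodes calpastatin, the inhibitor of the calpain proteases that tenderize meat. MC4R is a melanocortin receptor of the hypothalamus that restrains feeding, while VRTN is linked to the number of vertebrae and PLAG1 and LCORL to stature.

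A peak is an interval with more reads than its surroundings, and its fold enrichment is the ratio of the reads in it to the local background as the authors' peak caller gave it. The peak density of a gene is the number of bases of its window that lie in peaks per Mb of all peak bases of the library. The lists held between 99960 peaks in the skeletal muscle of P350 and 217308 in the cerebellum of P348, covered between 64.1 and 155.6 Mb, and give no read counts. No value is adjusted for depth, since the read totals given by the study did not enter the comparisons. At the same fold enrichment the skeletal muscle lists had smaller q-values than the others, since among peaks of about 3-fold enrichment the median −log10 q-value was 3.58 in P348 and 3.20 in P350, against 1.59 to 2.48 in the other 14 libraries. The values are therefore also given for peaks of at least 3-fold enrichment. Of 3 marker genes per tissue, skeletal muscle ranked first of the 8 tissues for all of its own (ACTA1, CKM and MYOD1) and liver for ALB and APOB, whereas adipose ranked neither first nor second for ADIPOQ, PLIN1 and CIDEC. Among 14 markers of other cells that muscle can hold, muscle ranked first for 4 (the satellite cell genes PAX7 and MYF5, COL1A1 of fibroblasts and CD79B of B cells) and last for PTPRC at 1.26 peak bases per Mb, with TEK and DCN, and no marker was at 0. The part of these cells in the results was not tested.

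To ask which of the 9 genes had more or less open chromatin in skeletal muscle, log2(density + 5) was compared between muscle and the mean of the other 7 tissues by limma over 18506 genes, all 9 included. RYR1, MSTN and PRKAG3 were higher in muscle and MC4R was lower, while IGF2, CAST, VRTN, PLAG1 and LCORL did not pass the threshold of 0.05 on the adjusted p. The 3 higher genes stand beside 31.9% of all genes tested that were higher in muscle, and the 1 lower gene beside 14.9% that were lower, so calls in muscle were common. The median difference over all genes was 0.375, and over the 9 genes 0.394. With each library centred on its median gene 15.8% of genes were higher and 21.9% lower, and with peaks of at least 3-fold enrichment 15.6% and 9.65%. Both muscle libraries lay above all 14 others for 3 of the 9 genes (MSTN, RYR1 and PRKAG3), beside 18.9% of all genes, and below all 14 for none, beside 6.68%. Muscle had the highest mean density of the 8 tissues for those 3 genes and IGF2, beside 35.4% of all genes. It had the lowest for VRTN and LCORL, beside 14.4%, although for LCORL muscle (19.89) and adipose (19.97) were nearly equal. MC4R, at 0 in muscle, adipose and spleen alike, is a tie and is not counted among the lowest.

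**Figure D1:**
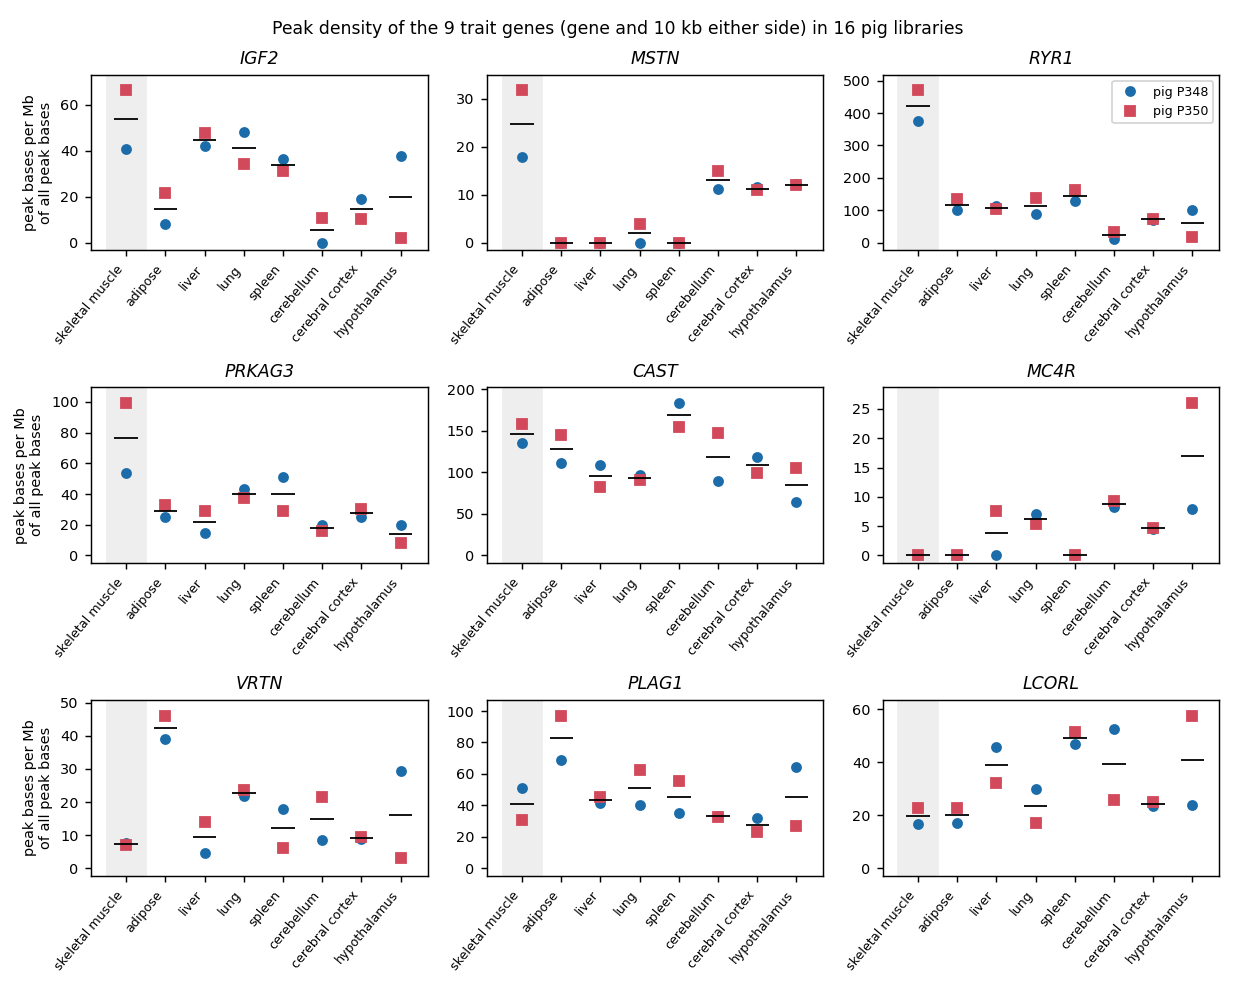
Peak density (peak bases in the gene and 10 kb either side per Mb of all peak bases, y axis) of the 9 genes in the 8 tissues (x axis), with a circle for pig P348, a square for pig P350 and a line at the mean of both. Skeletal muscle, shaded, stands above every other library for MSTN, RYR1 and PRKAG3 and is at 0 for MC4R.

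**Figure D2:**
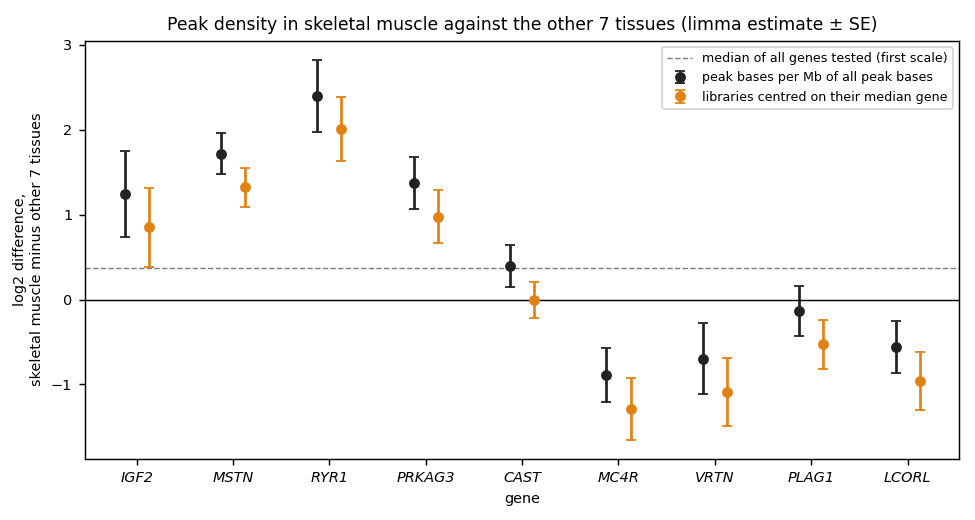
Fitted difference in log2(density + 5) between skeletal muscle and the other 7 tissues (y axis) for the 9 genes (x axis), with bars of 1 SE, on the scale of peak bases per Mb (black) and with libraries centred on their median gene (orange). The dashed line is the median of all genes tested, 0.375, which CAST (0.39) nearly meets.

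MSTN lies on chromosome 15 at 94623526-94628440, minus strand. Its density was 17.8 in the muscle of P348 and 31.8 in that of P350, and in the other 14 libraries it ranged from 0 to 15.0 with a median of 1.91. The muscle values did not overlap the others, the 6 brain libraries formed a second tier at 10.9 to 15.0, and adipose, liver and spleen had no peak in the window in either animal. The muscle difference was 1.72 ± 0.24 (SE) on the log2(density + 5) scale (adjusted p = 0.000101), 1.32 with libraries centred (adjusted p = 0.000727) and 1.99 with peaks of at least 3-fold enrichment (adjusted p = 0.000239). In the same fit the cerebellum was higher by 0.93 (adjusted p = 0.00387), while the cortex at 0.76 (adjusted p = 0.163) and the hypothalamus at 0.84 (adjusted p = 0.0646) did not pass.

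The MSTN promoter had higher folds in muscle than in any other tissue. A peak over the annotated transcription start site (TSS), at 94627971-94628827 as a region merged over libraries, had a fold enrichment of 7.90 and 8.63 in the 2 muscle libraries. The region was also listed in the cerebellum of P348 (3.09), in the cortex of both pigs (3.37 and 3.49) and in the hypothalamus of P350 (3.01), so every other value was at most 3.49. A second region in the gene body at 94625873-94626810 had folds of 4.75 and 4.11 in muscle and 2.54 in the cerebellum of P350. A region centred 12687 bp past the gene start, downstream of the gene at 94615269-94616237, was open in all 6 brain libraries with folds of 2.87 to 4.67 and in no other. The start of MSTN is overlapped by C15H2orf88, a gene on the opposite strand, and accessibility cannot be assigned to either gene.

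A stretch of 250 bases upstream of MSTN is shown because both muscle peaks cover it whole, beside the 250 bases before the start of RYR1, also covered whole in both muscle libraries, and of MC4R, which muscle peaks did not touch. The annotated MSTN transcript begins at its coding sequence, so the 120 bases next to it were left out. The stretches were read from Sscrofa11.1 in the direction of transcription, 5′ to 3′, at chr15:94628561-94628810 (minus strand), chr6:47339509-47339758 (plus strand) and chr1:160771763-160772012 (plus strand), and overlap no annotated exon. Capitals mark matches to CANNTG, the E-box letters recognized by the myogenic factors and many other factors, searched on both strands.
MSTN: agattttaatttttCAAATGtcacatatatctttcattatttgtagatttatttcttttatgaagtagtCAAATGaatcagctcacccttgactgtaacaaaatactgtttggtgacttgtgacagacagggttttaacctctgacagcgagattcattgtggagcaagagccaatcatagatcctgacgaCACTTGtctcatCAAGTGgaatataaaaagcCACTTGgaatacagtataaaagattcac
RYR1: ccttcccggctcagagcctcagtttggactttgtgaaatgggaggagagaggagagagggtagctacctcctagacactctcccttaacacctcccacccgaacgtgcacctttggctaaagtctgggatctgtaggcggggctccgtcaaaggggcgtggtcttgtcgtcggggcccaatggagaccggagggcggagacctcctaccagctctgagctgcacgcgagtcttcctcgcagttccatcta
MC4R: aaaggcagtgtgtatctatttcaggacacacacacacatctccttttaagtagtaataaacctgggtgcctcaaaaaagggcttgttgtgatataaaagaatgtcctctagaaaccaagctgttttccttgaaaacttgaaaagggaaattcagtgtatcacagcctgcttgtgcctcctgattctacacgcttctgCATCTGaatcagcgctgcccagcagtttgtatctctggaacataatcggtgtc
The MSTN stretch held 5 matches, the MC4R stretch 1 and the RYR1 stretch none. At least 1 match was present in 62.3% of 20664 promoters, taken as the 250 bases before the gene start, so a match is a description and not a site. None of the 3 stretches held CTA and TAG with any 4 bases between them, a MEF2-like pattern present in 2.33% of promoters, or GCTCGC, present in 13.9%. Other forms of a MEF2 site were not searched.

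RYR1 lies on chromosome 6 at 47339759-47458457, plus strand. Its density was 374 and 472 in muscle, and 11.3 to 163 in the other 14 libraries with a median of 101. The muscle values were more than any other library's, the highest of which came from the spleen of P350, and the lowest values were in the cerebellum (11.3 and 33.2) and the hypothalamus of P350 (17.3). The muscle difference was 2.40 ± 0.42 (adjusted p = 0.000544), larger than that of 99.4% of the genes tested, and 2.01 with libraries centred (adjusted p = 0.00129). With peaks of at least 3-fold enrichment it was 1.12 and did not pass (adjusted p = 0.171).

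The muscle signal of RYR1 was made of many weak peaks along the gene body. Each muscle library listed 30 peaks in the window, against 3 to 25 with a median of 13.5 in the other libraries, and they covered 26.6% and 24.7% of the window. Their median fold of 2.28 and 2.29 was below the median fold in the same window of every other library (2.40 to 3.76). Their median width was 907 and 886.5 bp, inside the range of the other libraries (288 to 955 bp, with a median of 562.5). Of 42 merged regions in the window 25 were open in both muscle libraries, and 23 of these overlapped an exon of the gene. Exon overlap was common in this window, since 28 of the 42 regions overlapped an exon outside the promoter, 22 of them open in muscle. The 5 regions open in both muscle libraries and in no other had folds of 1.81 to 3.995, with the highest at 47438084-47438337 in an intron (3.92 and 3.995). The promoter region at 47339463-47341500 had folds of 4.76 and 4.78 in muscle, and was listed in 7 other libraries with folds up to 4.27 in the spleen of P348. RASGRP4 and MAP4K1 reach into the window.

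**Figure D3:**
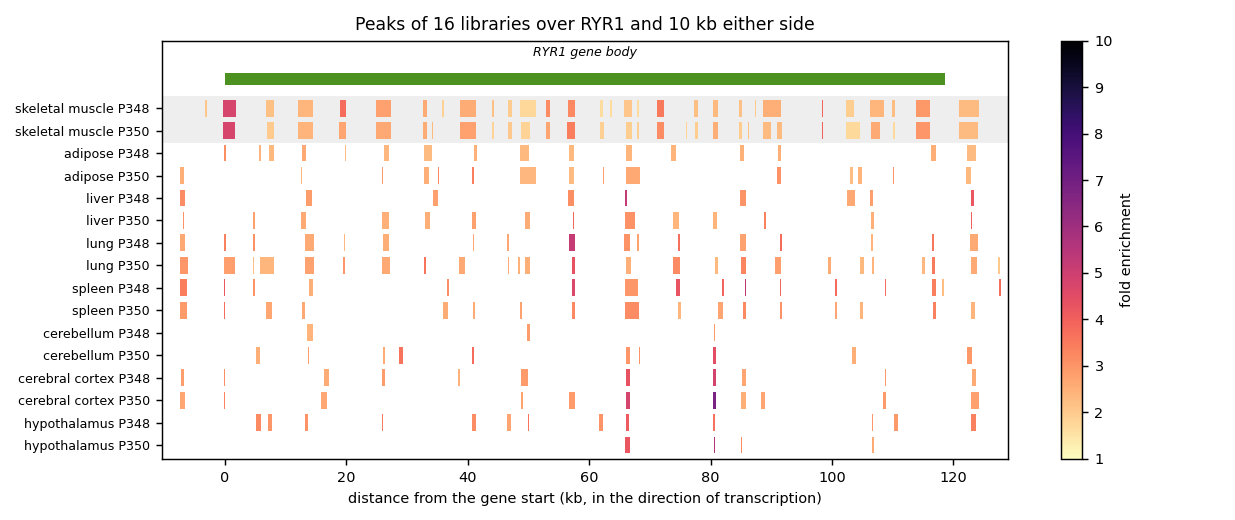
Peaks of the 16 libraries (rows) over RYR1 and 10 kb on either side, drawn by distance from the gene start in kb in the direction of transcription (x axis) and coloured by fold enrichment, with the gene body in green. The 2 muscle libraries hold 30 peaks each, most of them pale, with the strongest at the gene start (4.76 and 4.78).

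PRKAG3 lies on chromosome 15 at 120859486-120866308, minus strand. Its density was 53.6 and 99.5 in muscle and 8.36 to 50.8 in the other libraries, with a median of 27.1. Both muscle values lay above the others, although that of P348 exceeded the spleen of P348 (50.8) by little. The muscle difference was 1.37 ± 0.30 (adjusted p = 0.00250), 0.98 with libraries centred (adjusted p = 0.0250) and 2.84 with peaks of at least 3-fold enrichment (adjusted p = 0.0116). Without the muscle library of P350 it was 0.95 and did not pass (adjusted p = 0.111).

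The PRKAG3 promoter region at 120864530-120867337 was listed in 9 libraries, with folds of 4.19 and 3.42 in muscle and 2.36 to 2.88 in the others. A region 12428 bp from the start, downstream of the gene at 120853462-120853880, was open in both muscle libraries (4.81 and 3.89) and in no other library. A region upstream at 120871705-120872592 was open in both muscle libraries (3.48 and 4.24) and in the adipose of P348 (2.55). CYP27A1, a gene of sterol metabolism, ends within the window.

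IGF2 lies on chromosome 2 at 1469183-1496417, minus strand, and its window also holds INS, which encodes insulin, and TH, which encodes tyrosine hydroxylase. The density was 40.8 and 66.5 in muscle and 0 to 48.3 in the other libraries, with a median of 26.4. Muscle had the highest mean (53.7 ± 18.2 SD, n = 2), but 3 libraries, the liver of both pigs (42.1 and 47.6) and the lung of P348 (48.3), were above the lower muscle value. The pigs differed most in the hypothalamus, with 37.5 in P348 and 2.20 in P350. The muscle difference of 1.24 ± 0.51 did not pass (adjusted p = 0.0581), nor did it with libraries centred (0.85, adjusted p = 0.167) or peaks of at least 3-fold enrichment (0.97, adjusted p = 0.107). It passed with a pseudocount of 20 (0.80, adjusted p = 0.0223), windows of 2 kb (1.41, adjusted p = 0.0205), peaks of q-value under 0.01 (1.85, adjusted p = 0.0174) or under 0.0001 (2.61, adjusted p = 0.000467) and lists of equal length (1.54, adjusted p = 0.00883). It also passed without the cerebellum of P350 (1.36, adjusted p = 0.0286), the hypothalamus of P348 (1.43, adjusted p = 0.00733) or the hypothalamus of P350 (1.06, adjusted p = 0.0327). The q-value limits and the lists of equal length choose peaks by q-value, which was smaller in the muscle lists at equal fold enrichment. The part of this in those passes was not tested. The strongest muscle region, at 1494411-1496567 over the most upstream start, had folds of 3.60 and 3.61 and was listed in 9 other libraries with folds up to 3.82.

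CAST lies on chromosome 2 at 103255738-103378623, plus strand, and its window holds part of ERAP1, an aminopeptidase of antigen processing, and parts of the non-coding genes LOC106508433 and LOC110259691. The density was 135 and 158 in muscle and 64.3 to 184 in the others, with a median of 107, and the spleen was highest (184 and 155). The groups overlapped, with 4 other libraries above the lower muscle value, and the difference of 0.39 ± 0.24 did not pass (adjusted p = 0.195). It was -0.00082 with libraries centred, so CAST lay at the median of all genes, and by the number of peaks it was 0.65 and passed (adjusted p = 0.0134). With peaks of at least 3-fold enrichment it was 0.25 and did not pass (limma adjusted p = 0.381). In the window 4 of 33 regions were open in all 16 libraries. One region in an intron at 103318790-103319335 had folds of 6.52 and 8.12 in muscle and was listed elsewhere only in the cerebellum of P350 (2.88).

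PLAG1, a zinc finger transcription factor, lies on chromosome 4 at 75646585-75696718, plus strand, beside CHCHD7 and the non-coding gene LOC110260293. The density was 50.9 and 30.6 in muscle and 23.0 to 97.1 in the others, with a median of 40.9, and adipose was highest (69.2 and 97.1). Muscle lay inside the range of the others, with a difference of -0.13 ± 0.30 (adjusted p = 0.732). It was -0.53 with libraries centred (limma adjusted p = 0.170) and -0.55 with peaks of at least 3-fold enrichment (adjusted p = 0.212). The adipose difference of 0.97 did not pass either (adjusted p = 0.0785). A region in an intron at 75672693-75673324 was open in both muscle libraries with folds of 9.95 and 11.5, above the PLAG1 promoter in the same libraries (6.55 and 6.84), and in no other library. It lay 12914 bp from the nearest start of the gene. The PLAG1 promoter region at 75645382-75647255 also covers the start of CHCHD7 on the opposite strand, and its accessibility cannot be assigned to either gene.

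The strongest muscle regions of PRKAG3, PLAG1 and CAST are shown because muscle held them alone or nearly so. The promoter regions of these genes were listed in other tissues as well. With peaks of q-value under 0.0001 or of at least 3-fold enrichment, however, the PRKAG3 promoter peak was also in muscle alone. Each stretch is the central 300 bases of what both muscle peaks share, from Sscrofa11.1 in the direction of transcription of the gene, at chr15:120853528-120853827 (minus strand), chr4:75672972-75673271 (plus strand) and chr2:103318954-103319253 (plus strand). Capitals again mark CANNTG.
PRKAG3: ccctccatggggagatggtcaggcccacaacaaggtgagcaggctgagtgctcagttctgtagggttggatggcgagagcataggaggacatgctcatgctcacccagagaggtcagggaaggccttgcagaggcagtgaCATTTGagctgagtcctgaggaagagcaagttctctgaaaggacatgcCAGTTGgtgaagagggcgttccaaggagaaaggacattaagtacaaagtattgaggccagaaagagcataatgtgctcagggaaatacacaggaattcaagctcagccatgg
PLAG1: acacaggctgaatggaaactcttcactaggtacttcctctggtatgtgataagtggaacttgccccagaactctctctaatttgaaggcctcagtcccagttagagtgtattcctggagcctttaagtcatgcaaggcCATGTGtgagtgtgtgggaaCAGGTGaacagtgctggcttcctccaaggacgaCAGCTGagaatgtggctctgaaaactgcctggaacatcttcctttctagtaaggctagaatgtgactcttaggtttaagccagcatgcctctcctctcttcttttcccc
CAST: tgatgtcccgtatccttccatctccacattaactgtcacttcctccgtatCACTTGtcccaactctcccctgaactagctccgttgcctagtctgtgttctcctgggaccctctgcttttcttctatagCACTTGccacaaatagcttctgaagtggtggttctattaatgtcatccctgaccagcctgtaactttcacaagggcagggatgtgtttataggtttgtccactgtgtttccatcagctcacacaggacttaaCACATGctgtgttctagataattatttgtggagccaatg
The stretches held 2, 3 and 3 matches, and at least 1 match was present in 82.2% of the central 300 bases of 225785 muscle peaks. The MEF2-like pattern, present in 4.30% of those, and GCTCGC, present in 8.75%, were in none of the 3.

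VRTN lies on chromosome 7 at 97614707-97624273, plus strand, with no other gene in its window. The density was 7.58 and 7.13 in muscle and 3.14 to 46.1 in the others, with a median of 15.96. Adipose was highest with 38.9 and 46.1, both above every other library, and muscle was lowest on average although 3 other libraries were lower. Neither the muscle difference of -0.69 ± 0.42 (adjusted p = 0.186) nor the adipose difference of 1.52 (adjusted p = 0.0608) passed. The muscle difference passed with windows of 50 kb (-0.99, adjusted p = 0.0125), with libraries centred (-1.09, adjusted p = 0.0481) and without the hypothalamus of P350 (-0.84, adjusted p = 0.0422), and was 0.034 with peaks of at least 3-fold enrichment (adjusted p = 0.975). A narrow region downstream of the gene at 97625852-97626265 was listed in 14 libraries, with folds of 5.02 and 6.94 in muscle and up to 10.4 in the liver of P348, and was the strongest of the window in muscle.

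LCORL, a gene of transcriptional regulation, lies on chromosome 8 at 12806878-12969370, minus strand, and NCAPG, a condensin subunit, reaches into its window. The density was 16.9 and 22.9 in muscle and 17.002 to 57.7 in the others, with a median of 27.9. Each muscle library listed a single peak in this window of 182 kb, at the promoter, with folds of 5.34 and 6.05. The other libraries listed 1 to 9 peaks, with 1 also in the adipose of P350 and the hypothalamus of P348. The difference of -0.56 ± 0.30 did not pass (adjusted p = 0.139), and it passed with libraries centred (-0.95, adjusted p = 0.0425) and with peaks of at least 3-fold enrichment (-0.80, adjusted p = 0.0155). It also passed with peaks of q-value under 0.01 (-0.90, adjusted p = 0.0142) or under 0.0001 (-1.43, adjusted p = 0.00384), lists of equal length (-0.75, adjusted p = 0.0320) and by the number of peaks (-1.01, adjusted p = 0.0113). Of 20 regions in the window 1 was open in muscle, the promoter region at 12967710-12969889 that was open in all 16 libraries.

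MC4R, a gene of a single exon at 160772013-160774124 on chromosome 1, plus strand, lies inside LOC110261667 on the opposite strand. The window had no peak in either muscle library, nor in adipose or spleen. The density was 7.89 and 26.1 in the hypothalamus, 8.33 and 9.23 in the cerebellum, 4.56 and 4.64 in the cortex, 7.06 and 5.45 in lung, and 0 and 7.63 in liver. The hypothalamus was thus highest on average, through P350 alone, since P348 lay among the cerebellum and lung values. The mean of MC4R over the 16 libraries was 5.05, just above the filter of 5. MC4R passed that filter through its highest values, among them the hypothalamus of P350 (26.1) and the cerebellum of both pigs (8.33 and 9.23). All its calls below rest on those values for being tested, so the hypothalamus and cerebellum calls are not independent of the filter. The hypothalamus difference was 1.39 (adjusted p = 0.0277, beside 1.31% of all genes higher there and 2.66% lower) and the cerebellum difference 0.78 (adjusted p = 0.0398, beside 7.47% higher). Without the hypothalamus of P350 the first was 0.76 (adjusted p = 0.342), and the second did not pass without either cerebellum library (adjusted p = 0.151 without P348 and 0.155 without P350), nor without each of 7 other libraries in turn (up to 0.0554). In muscle MC4R is listed at 0, so no fold is given, and the fitted difference depends on the pseudocount. It was -2.02 with 1 (limma adjusted p = 0.0166), -0.89 with 5 (adjusted p = 0.0330) and -0.33 with 20 (adjusted p = 0.122). It passed with libraries centred (-1.29, adjusted p = 0.0139), peaks of at least 3-fold enrichment (-0.86, adjusted p = 0.0109) and windows of 50 kb (-2.23, adjusted p = 3.97e-07). It also passed by the number of peaks (-0.58, adjusted p = 0.0213) and with lists of equal length (-0.82, adjusted p = 0.0498). It did not pass with peaks of q-value under 0.0001 (-0.93, adjusted p = 0.125), and with no filter on low values none of the 3 calls of MC4R passed (adjusted p = 0.0602 in muscle, 0.0638 in the hypothalamus and 0.0651 in the cerebellum). The call was lost without the muscle library of either pig, with adjusted p = 0.144 without P348 and 0.185 without P350.

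The peak at the start of MC4R was strongest in the cerebral cortex, not in the hypothalamus. The region at 160771829-160773275 had folds of 9.39 and 7.75 in the cortex, 5.29 and 3.56 in the hypothalamus and 5.01 and 4.27 in the cerebellum, against 2.40 to 2.81 in lung and the liver of P350. A second region, 1808 bp before the start at 160769008-160770205, was listed in both hypothalamus libraries (3.19 and 2.77) and in no other.

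**Figure D4:**
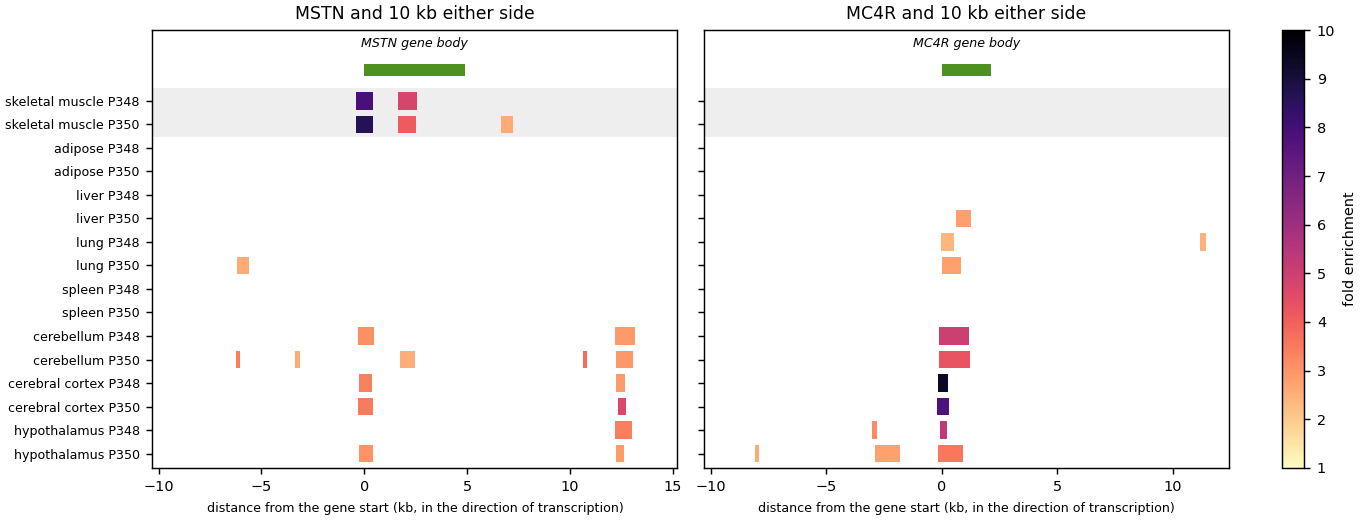
Peaks of the 16 libraries (rows) over MSTN (left) and MC4R (right) and 10 kb on either side, drawn by distance from the gene start in kb in the direction of transcription (x axis) and coloured by fold enrichment. The start of MSTN is darkest in muscle (7.90 and 8.63) and that of MC4R in cerebral cortex (9.39 and 7.75), and muscle has no peak at MC4R.

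Peaks within 2 kb of an annotated TSS separated genes open in every library from genes open in some. CAST, PLAG1 and LCORL had one in all 16 libraries, beside 54.9% of all genes, and they have 14, 2 and 12 annotated starts. The promoter region of PLAG1 also covers the start of CHCHD7. IGF2, with 15 starts, had one in 15 libraries, VRTN in 10, RYR1, PRKAG3 and MC4R in 9 each and MSTN in 7, so none of the 9 lacked one throughout, beside 9.04% of all genes. In both muscle libraries 7 of the 9 genes had such a peak, beside 70.3% of all genes, MC4R had none and VRTN had one in P348. The number was also 7 with peaks of q-value under 0.0001, beside 65.2%, and with peaks of at least 3-fold enrichment, beside 61.7%. Per library 4 to 8 of the 9 genes had one, beside 70.8% to 81.2% of all genes, with the lowest number in the liver of P348. With peaks of q-value under 0.0001, MSTN and PRKAG3 had a promoter peak in both muscle libraries and in no library of another tissue, as had 1.39% of all genes. With peaks of at least 3-fold enrichment this held for PRKAG3, beside 0.571% of all genes, whereas MSTN had such a peak in 6 libraries.

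**Figure D5:**
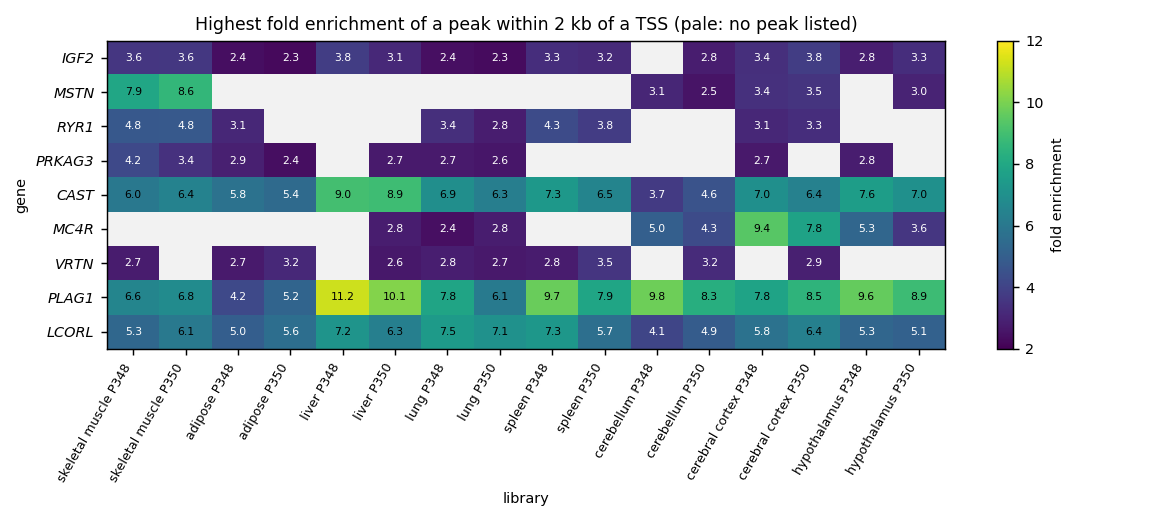
Highest fold enrichment of a peak within 2 kb of a TSS (colour and printed value) for the 9 genes (rows) in the 16 libraries (columns), pale where no peak is listed. CAST, PLAG1 and LCORL are filled in all 16 libraries, and the MSTN values in muscle (7.9 and 8.6) exceed all others of that gene.

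The 9 windows held 147 merged regions. Of these 53 (36.1%) were open in both muscle libraries, beside 21.9% over the windows of all genes, and 25 of the 53 were in RYR1. The 7 regions (4.76%, beside 2.72%) open in muscle alone were 5 of RYR1, 1 of PRKAG3 and 1 of PLAG1. A further 7 regions (4.76%, beside 4.72%) were open in all 16 libraries, 4 of them in CAST, and 37 (25.2%, beside 30.6%) were listed in a single library.

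Across all 8 tissues 12 of the 72 combinations of gene and tissue passed, 4 of them in muscle and 4 in the cerebellum. This is 16.7%, beside 18.3% over all genes and tissues. In the cerebellum RYR1 (-2.27, adjusted p = 0.000565) and IGF2 (-1.83, adjusted p = 0.00601) were lower, beside 64.1% of all genes, and MSTN and MC4R were higher as given above. The cerebellum lists are long and their median difference over all genes was -0.867. With libraries centred 17.3% of genes were higher and 10.3% lower there, RYR1 stayed lower (-1.40, adjusted p = 0.0149) and IGF2 did not pass (-0.96, adjusted p = 0.145), while CAST (0.88, adjusted p = 0.00790) and LCORL (1.20, adjusted p = 0.0200) were higher. MSTN passed as lower in adipose (adjusted p = 0.0195, beside 1.15% of all genes), liver (adjusted p = 0.0330, beside 0.184%) and spleen (adjusted p = 0.00604, beside 3.84%), where it is listed at 0 in both pigs. These calls were lost without either library of the tissue, with adjusted p of 0.0705 to 0.376, and that in liver also without each of 4 libraries of other tissues in turn (0.0503 to 0.0590). The IGF2 call in the cerebellum was lost without P348 (-1.01, adjusted p = 0.220), and the calls of RYR1 and MSTN there were kept without each library. None of the 9 genes was higher in adipose, liver or spleen, beside 2.43%, 0.686% and 14.7% of all genes, although with a pseudocount of 20 VRTN (0.95, adjusted p = 0.0262) and PLAG1 (0.77, adjusted p = 0.0421) passed in adipose and CAST (0.56, adjusted p = 0.0413) in spleen. PLAG1 also passed in adipose with either q-value limit or lists of equal length (adjusted p = 0.0193 to 0.0455), and IGF2 in liver with q-value under 0.0001, lists of equal length or 3-fold enrichment (adjusted p = 0.00249 to 0.0418). None passed in lung or cortex, where 0.027% and 0.535% of all genes were higher and 0.173% were lower in cortex. These contrasts share their libraries and are not independent of each other.

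The order of the tissues was seldom clear from 2 animals. The lower library of one tissue lay above the higher library of the next tissue in the order at the top for MSTN, RYR1 and PRKAG3 (muscle above cerebellum, spleen and lung) and for VRTN and PLAG1 (adipose above lung). For IGF2, CAST, MC4R and LCORL the first tissue overlapped the second, in turn liver, muscle, cerebellum and hypothalamus. In IGF2 and CAST every neighbouring pair of tissues overlapped.

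The genes that act with these 9 were counted by lists, and their muscle differences are on the same log2(density + 5) scale. The counts of each list stand beside 31.9% of all genes higher in muscle and 14.9% lower. These shares were 15.8% and 21.9% with libraries centred, and 15.6% and 9.65% with peaks of at least 3-fold enrichment. Of 14 genes of calcium release 11 were higher and 2 lower, led by TRDN, the triadin of the release complex (4.02), ATP2A1, the fast muscle calcium pump (2.74), JPH2, a junctophilin (2.74) and SRL, sarcalumenin (2.25). RYR2, the heart and brain relative of RYR1, was lower (-2.13, adjusted p = 3.43e-05), with 35.4 and 32.6 in muscle against 69.9 to 304 elsewhere. The densities of TRDN were 482 and 834 in muscle and 5.19 to 140 elsewhere. With peaks of at least 3-fold enrichment 7 genes were higher and 1 lower, and ATP2A1 turned to -0.47 (adjusted p = 0.256).

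Of 13 genes of AMP kinase and glycogen 8 were higher and none lower, with PHKA1, a phosphorylase kinase subunit (2.49), UGP2, which makes the glycogen precursor (2.38), PRKAA2, a catalytic AMP kinase subunit (2.00), and PYGM, the muscle glycogen phosphorylase (1.68). With libraries centred 8 were higher. With peaks of at least 3-fold enrichment 5 were higher and 1 was lower, which was PYGM (-1.49, limma adjusted p = 0.0106). Of the 4 calpain genes 3 were higher, with CAPN3, the muscle calpain, at 2.85, CAPN2 at 0.83 and the shared small subunit CAPNS1 at 0.67. With libraries centred CAPN2 (0.44, adjusted p = 0.101) and CAPNS1 (0.27, adjusted p = 0.333) did not pass. The densities of CAPN3 were 215 and 240 in muscle against 3.39 to 85.9 elsewhere.

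Of 14 genes of the myostatin pathway 9 were higher and none lower, led by WFIKKN2, a myostatin binding protein (1.48), ACVR2B, its receptor (1.44), SMAD3, a signal transducer (1.41), and TGFBR1, a partner receptor (1.28). Of 17 genes of the insulin-like growth factor axis 9 were higher and 2 lower, with INSR, the insulin receptor (1.63), GHR, the growth hormone receptor (1.52), IGFBP4, a binding protein (1.48), and, lower, IGFBP1, a binding protein made by liver (-1.55). With libraries centred the counts fell to 4 higher and 1 lower in the first list and to 5 higher and 3 lower in the second, and with peaks of at least 3-fold enrichment to 4 higher and 1 lower and to 5 higher and 0 lower, with IGFBP1 not passing (-0.52, adjusted p = 0.612).

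Of 9 melanocortin genes 4 were lower in muscle and 1, MC1R, was higher (1.00). The lower genes were SIM1, a transcription factor of the hypothalamus (-2.36), MC3R, the sister receptor of MC4R (-1.23), LEPR, the leptin receptor (-1.17), and PCSK1, a prohormone convertase (adjusted p = 2.68e-05), which is listed at 0 in both muscle libraries against 8.37 to 66.1 elsewhere. With libraries centred 7 were lower and none higher, and with peaks of at least 3-fold enrichment 6 and none. At 3-fold enrichment MC1R turned and was among the lower genes (-1.005, limma adjusted p = 0.0231). With libraries centred MC1R did not pass (0.61, adjusted p = 0.132). Of 9 genes of body size and vertebral number PLAGL2, a relative of PLAG1 (1.11), and NR6A1, a nuclear receptor (0.65), were higher and HMGA2, a chromatin protein (-0.84), was lower. With peaks of at least 3-fold enrichment none of the 3 passed, at 0.10, 0.47 and 0.07. With libraries centred PLAGL2 (0.71, limma adjusted p = 0.103) and NR6A1 (0.25, adjusted p = 0.370) did not pass, and HMGA2 did (-1.24, adjusted p = 0.000265). Over all 7 lists 43 of 80 genes were higher and 9 lower with a median of 0.778, beside 31.9% higher and 14.9% lower over all genes with a median of 0.375. With libraries centred 29 were higher and 14 lower, beside 15.8% and 21.9% of all genes. With peaks of at least 3-fold enrichment the numbers were 23 and 9, beside 15.6% and 9.65%.

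For each of the 9 genes the genes most like it were sought by the Pearson correlation of log2(density + 5) over the 16 libraries, outside its own window. These values are a description over libraries that share 2 animals and 8 tissues. They were SLC45A4 (r = 0.969) and MROH5 (0.943) for IGF2, WDR70 (0.853) and IL1RAPL2 (0.847) for MSTN, and PHF2 (0.960) for RYR1. For PRKAG3 they were INTS6 (0.917) and MAU2 (0.894), for CAST NOTCH2 (0.872) and RPAP1 (0.847), and for MC4R GABRA6 (0.925), one of the cerebellum markers, and B3GALT1 (0.880). For VRTN they were KPNA7 (0.898) and LOC110261289 (0.855), for PLAG1 LOC106507823 (0.890) and IQCA1 (0.814), and for LCORL IFNG (0.855) and RNLS (0.854).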

How the data were processed

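ATAC-seq peak lists of the 16 pig libraries were analysed, 1 list per library without pooling of the animals. The cattle lists were not used here. The authors called peaks with MACS2 in broad mode at a q-value limit of 0.05 on Sscrofa11.1, and the submitters' processing notes name Trim Galore 0.4.5, BWA 0.7.17, SAMtools 1.10 and Picard 2.18.17. Whether read positions were shifted for the transposase is not given in the sources used here. Each list holds a deposited score, the fold enrichment over local background as a ratio, and the −log10 p-value and −log10 q-value that the authors' caller averaged over the peak, so 1.54% to 16.3% of peaks per list had an averaged q-value above 0.05. The score entered no result, and the −log10 p-value only ranked peaks of equal −log10 q-value for the lists of equal length. A q-value depends on depth, and the lists give no read counts.

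Density was computed per gene of the RefSeq annotation release 106 of Sscrofa11.1, the build of the lists. Genes with a mean of at least 5 peak bases per Mb over the 16 libraries were kept. The filter used all 16 libraries also in the fits that left a library out. Log2(density + 5) was fitted with a mean per tissue in limma 3.58.1 (R 4.3.3) over all 16 libraries, with contrasts of each tissue against the mean of the other 7, moderated variances and Benjamini-Hochberg adjustment over all genes tested in a contrast. Fold changes on this scale understate those of genes with low density. Merged regions are peaks that share at least 1 bp. The fit was tested on simulated data.

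Tissue and animal came from the labels, and the animal was the replicate. Same-named libraries come from the same animal, which pairs them across tissues, and deviations from the tissue means correlated between tissues of an animal with a mean r of -0.00503 (-0.22 to 0.177, 28 pairs of tissues). The 9 genes, the pathway lists and the markers were chosen with earlier results of these data known. Genes named beside the 9 were the up to 4 per list with the largest difference among those that passed, RYR2, MC1R and a few others chosen after their values were seen, and the 2 genes most correlated with each of the 9, of which 1 is not reported here. Regions named were the strongest in muscle or in the tissue of highest density, by the fold of the weaker animal, and others chosen after their values were seen. Alternatives were pseudocounts of 1 and 20, no filter, windows of 2 and 50 kb, q-value limits of 0.01 and 0.0001, lists of equal length (99960 peaks), the number of peaks, other TSS distances, merging of peaks closer than 500 bp, the animal as a block and each library left out. Centring on the median gene, the limit of 3-fold enrichment and leaving out each library for the calls over all 8 tissues were chosen after seeing the data.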

Additional observations from a re-analysis of the deposited data

How the results depend on the processing

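Of the 9 genes, MSTN kept its direction and its call under every alternative in which it could be tested, and fell below the filter on low values with windows of 2 kb and with peaks of q-value under 0.0001. MC4R was not tested with windows of 2 kb or q-value under 0.01 for the same reason. RYR1 kept its direction under all alternatives and its call under all but the limit of 3-fold enrichment (1.12, limma adjusted p = 0.171), and PRKAG3 kept its call without each library except the muscle of P350. With that library left out 2 of the 9 genes passed, against 4 with all libraries, and the range over all libraries left out in turn was 2 to 6. The direction turned for CAST (-0.17 with q-value under 0.0001 and -0.00082 with libraries centred), VRTN (0.070 with q-value under 0.0001, 0.034 at 3-fold enrichment and 0.24 by number of peaks) and PLAG1 (0.068 by number of peaks and 0.19 without the muscle of P350), none of which passed in those settings. The differences with each library left out ranged from -0.46 to 0.19 for PLAG1, from 2.23 to 2.57 for RYR1, from 1.37 to 2.06 for MSTN, from 0.95 to 1.79 for PRKAG3 and from 0.92 to 1.57 for IGF2.

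Over all genes 8670 passed in muscle, 5911 higher and 2759 lower, and 10158 had an unadjusted p under 0.05. The number was 4893 with q-value under 0.01 (2950 higher), 4189 with q-value under 0.0001 (1741 higher) and 4586 at 3-fold enrichment (2834 higher and 1752 lower). With lists of equal length 3826 were higher, and with libraries centred 2930. With each library left out it ranged from 3102 to 9800, from 1849 to 6966 higher and from 1253 to 2834 lower, with the lowest numbers without the muscle of P350 (3102, 1849 and 1253) and 5698 without that of P348. Of the 72 combinations of gene and tissue 19 passed at 3-fold enrichment against 12, and 8 to 17 with each library left out. The regions open in muscle alone numbered 16 when other tissues needed both animals, and 21 with q-value under 0.0001, against 7. With the animal as a replicate block 8449 genes passed, and no call of the 9 genes changed in muscle. No value was adjusted for depth, and the part of depth in the smaller q-values of the muscle lists was not tested.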
